A study of Aspergillus luchuensis with 9 samples.

Results

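In the white koji mould Aspergillus luchuensis mut. kawachii, 3 genes were at or near 0 in the libraries of 1 deletion strain and present in every library of the other strains. AKAW2_80200S was nearly absent in ΔhepA, and AKAW2_10350A in ΔlaeA. AKAW2_60103A was listed at 0 in ΔlaeA, but on so few fragments elsewhere that in a single library a level like the control's cannot be told from absence. They are the 3 of 12941 genes in the deposited expression table selected on their measured values. The selection asked for at least 5 FPKM in each of the 6 libraries of 2 strains, and in the 3 libraries of the remaining deletion strain for at most 1/8 of the lowest of those 6 values. FPKM counts sequenced fragments per unit of transcript length and of library size, so levels are given per length. Because the members were chosen by these FPKM values in all 9 libraries, their levels are described here without a test.

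The study sequenced poly(A)-enriched RNA from 9 libraries, 3 each of a ΔhepA strain, a ΔlaeA strain and a control strain, all labelled mut. kawachii. The labels used here name genotype and strain alone, without parental markers, numbers of transformants or growth conditions. Whether the 3 libraries of a strain are independent cultures is not stated either. The p-values below therefore rest on library-to-library spread that may be technical. FPKM sums ran from 1368965 to 1716065 per library. Depths relative to control replicate 3, estimated from the steps between low values, were 1.04, 0.901 and 0.979 in ΔhepA replicates 1 to 3, 0.973, 0.66 and 0.519 in ΔlaeA, and 0.94 and 0.841 in control replicates 1 and 2. Genes of the mitochondrial genome took 2.85%, 3.04% and 6.999% of the FPKM sum in ΔhepA replicate 2 and ΔlaeA replicates 2 and 3, and 1.09% to 1.67% in the other 6 libraries.

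HepA belongs to the heterochromatin protein 1 family, whose members in other organisms bind methylated histone H3 and help keep chromatin compact and transcriptionally quiet. LaeA is a nuclear protein resembling methyltransferases that, in Aspergillus nidulans, acts with the velvet proteins VeA and VelB on secondary metabolism and development. Reads from a deleted gene are missing from its strain, as are those of a gene that is no longer transcribed. No gene in the reference table carries the symbol hepA or laeA, and the loci that were deleted are not given in the sources used here. In these libraries, removal of a gene and loss of its transcript cannot be told apart.

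All 3 genes are annotated as protein-coding, and the reference table gives them no symbol beyond the locus tag, so nothing is said here of what their products do. AKAW2_80200S lies on the plus strand of chromosome 8, from 589285 to 590334, and spans 1050 bases. AKAW2_10350A lies on the minus strand of chromosome 1, from 1026412 to 1027642, and spans 1231 bases. AKAW2_60103A lies on the minus strand of chromosome 6, from 286517 to 286759, and spans 243 bases. Coordinates are those of the deposited table and equal the reference assembly AkawachiiIFO4308_assembly01. The 3 genes are on different chromosomes, and the 2 that were low in ΔlaeA are therefore not neighbours.

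AKAW2_80200S had 0.41, 0.48 and 1.31 FPKM in the ΔhepA libraries, 71.71, 34.82 and 26.19 FPKM in the ΔlaeA libraries, and 69.48, 54.6 and 64.3 FPKM in the control libraries. The 3 ΔhepA libraries stood far below all others, and the ΔlaeA libraries overlapped the control. The ΔhepA mean was 0.733 ± 0.501 FPKM, against 62.8 ± 7.55 FPKM in the control (SD, n = 3 each). That is 1.17% of the control mean. A Poisson 95% interval from 0.379% to 2.73% covers counting error in ΔhepA only and takes an estimated 5 fragments as known. It takes no account of the selection of the gene on these same values. In the control the gene was well expressed: 77.9% of all genes had a mean at or below its own.

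AKAW2_10350A had 0.24, 0.7 and 0 FPKM in the ΔlaeA libraries, 8.06, 10.05 and 13.5 FPKM in the ΔhepA libraries, and 15.24, 21.98 and 10.42 FPKM in the control libraries. The ΔlaeA libraries were lowest without overlap, and the ranges of ΔhepA and control overlapped. The ΔlaeA mean was 0.313 ± 0.356 FPKM, against 15.9 ± 5.81 FPKM in the control (SD, n = 3 each), or 1.97% of it. A Poisson 95% interval from 0.407% to 5.77% covers counting error in ΔlaeA only and takes an estimated 3 fragments as known. Selection on these same values is not allowed for in it. Its control level was near the middle of the table, with 54.7% of genes at or below it.

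AKAW2_60103A was listed at 0 FPKM in the 3 ΔlaeA libraries. It had 12.89, 10.12 and 46.25 FPKM in the ΔhepA libraries and 5.25, 11.59 and 8.53 FPKM in the control libraries. ΔhepA replicate 3 stood far above the other 8 libraries, and the other ΔhepA values were close to the control. In the control, 45.2% of genes had a mean at or below that of AKAW2_60103A.

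**Figure D1:**
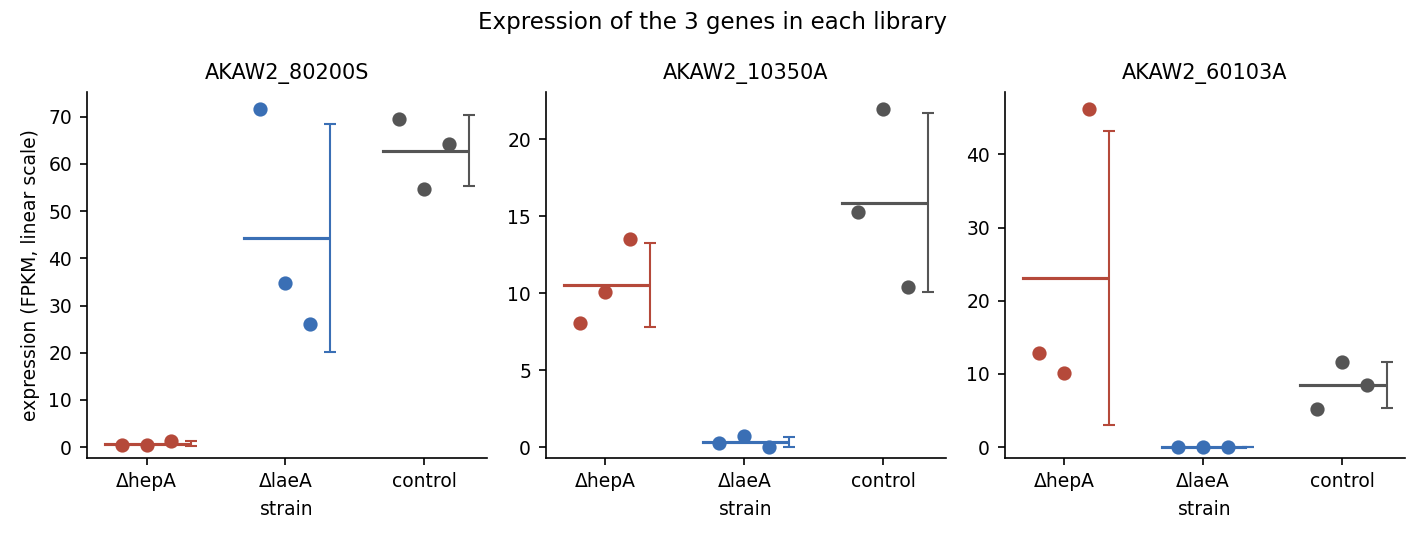
Expression in FPKM (linear vertical axis, separate for each panel) of the 3 genes by strain; points are libraries in replicate order, horizontal lines are means of 3 libraries, and bars are the SD, drawn no lower than 0. AKAW2_80200S stayed at or below 1.31 FPKM in ΔhepA, and AKAW2_10350A and AKAW2_60103A stayed at or below 0.7 FPKM in ΔlaeA.

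The 3 genes rested on very different amounts of sequence. Where fragments are few, deposited FPKM values are whole multiples of what 1 fragment is worth in a library, so the number of fragments behind a value can be estimated. For AKAW2_60103A the step was read from the genes of exactly its own annotated length, 7 in all, of which 5 were above 0 in some library. In those genes 1 fragment was worth between 4.26 FPKM in control replicate 3 and 8.42 FPKM in ΔlaeA replicate 3, so for a gene this short the threshold of 5 FPKM amounts to about 1 fragment.

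On that scale AKAW2_60103A had 0, 0 and 0 fragments in ΔlaeA, 3, 2 and 10 fragments in ΔhepA, and 1, 2 and 2 fragments in the control. A count of 0 allows up to 3 fragments in a library, which is 16 FPKM in ΔlaeA replicate 1, 19.3 FPKM in replicate 2 and 25.3 FPKM in replicate 3. Of the 6 libraries that show the gene, 5 lie under all 3 of these limits, and ΔhepA replicate 3 lies above them. In a single library of this depth, a lower level of AKAW2_60103A in ΔlaeA than in the control was not detectable. Together the 3 ΔlaeA libraries had 0 fragments, against 5 in the control and 15 in ΔhepA. That contrast was not tested, since the gene was chosen on these values, and no fold is given.

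The other genes were measured by more fragments in the strains that express them. AKAW2_80200S had an estimated 1, 1 and 3 fragments in ΔhepA, 163, 54 and 32 in ΔlaeA, and 153, 107 and 150 in the control. AKAW2_10350A had an estimated 1, 2 and 0 fragments in ΔlaeA, 36, 39 and 57 in ΔhepA, and 62, 80 and 45 in the control. The sums were 5 fragments in ΔhepA against 410 in the control for AKAW2_80200S, and 3 fragments in ΔlaeA against 187 in the control for AKAW2_10350A. Both were therefore near absent at depths that would have shown a level like the control's in each library, and for both a few fragments remained. For AKAW2_10350A, 3 fragments in ΔlaeA replicate 3 would be 1.34 FPKM, well under the 8.06 FPKM of the lowest library of the other strains.

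**Figure D2:**
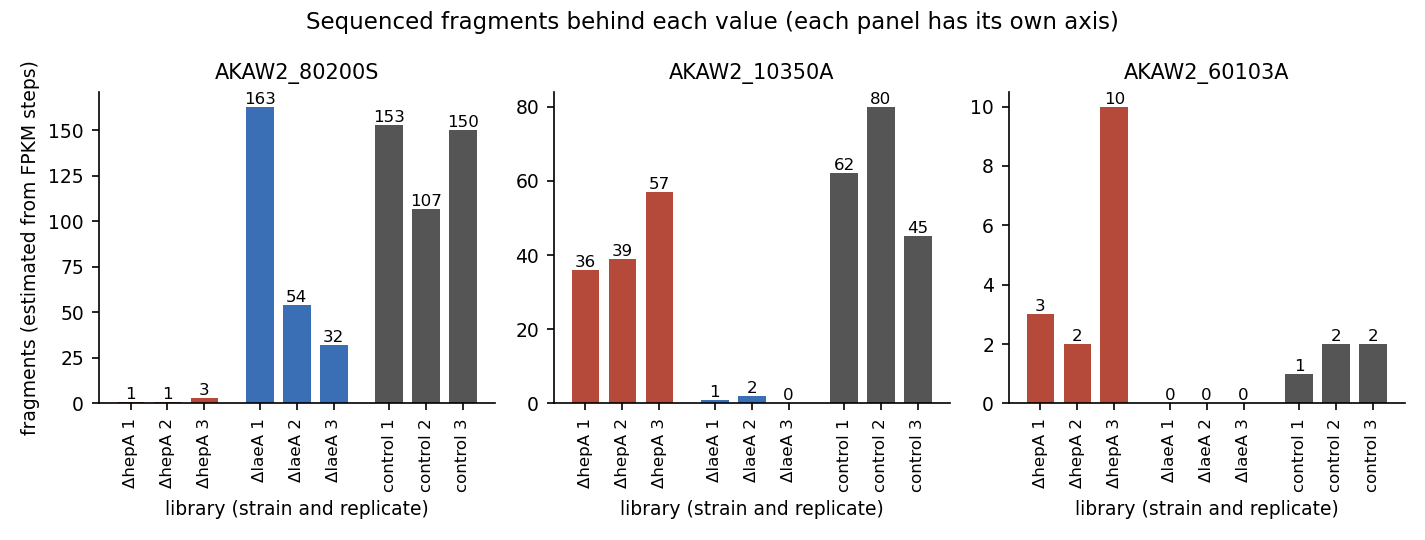
Estimated number of sequenced fragments (vertical axis from 0, separate for each panel) behind the value of each gene in each library, with the number printed on each bar. AKAW2_80200S and AKAW2_10350A have 32 or more fragments in every library of the strains that express them, and AKAW2_60103A has 10 at most.

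The 3 genes met the limit of 1/8 by different margins. The highest value in the low strain was 5% of the lowest value in the 6 other libraries for AKAW2_80200S, 8.68% for AKAW2_10350A and 0% for AKAW2_60103A. Just outside the limit of 1/8 stood AKAW2_81091S, a chromosome 8 gene, with 6.4, 2.26 and 4.79 FPKM in ΔlaeA, 39.92, 62.84 and 47.86 FPKM in ΔhepA and 198.23, 57.61 and 108.49 FPKM in the control. AKAW2_10487S had 0.75, 1.1 and 0 FPKM in ΔlaeA, against 5.37 FPKM in the lowest of the 6 other libraries, and AKAW2_81090A at most 4.54 FPKM in ΔlaeA, against 17.05 FPKM. In all 3 of these genes ΔlaeA was the strain with the lowest values. ΔhepA was also below the control in AKAW2_81090A, at 17.05, 23.35 and 25.07 FPKM in ΔhepA and 196.07, 47.43 and 93.08 FPKM in the control. In AKAW2_81091S the ΔhepA and control values given above overlapped.

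Of the genes that met the limit of 1/8 but not the level of 5 FPKM, the 3 nearest to that level had a lowest value of about 1 FPKM. AKAW2_50203A, a gene of 3477 bases, was listed at 0 in all 3 ΔhepA libraries, and had 2.28, 2.3 and 1.73 FPKM in ΔlaeA and 0.94, 1.27 and 1.08 FPKM in the control. ARL2, named after a small GTPase of the ADP-ribosylation factor family, and AKAW2_80355S were listed at 0 in the 3 ΔlaeA libraries. Both had at least 1.1 FPKM in each of the 6 others. They are short, at 578 and 445 bases, and the fragments behind their values were not estimated. Those values may therefore rest on few fragments, as for AKAW2_60103A, and whether the zeros mean absence was not tested.

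**Figure D3:**
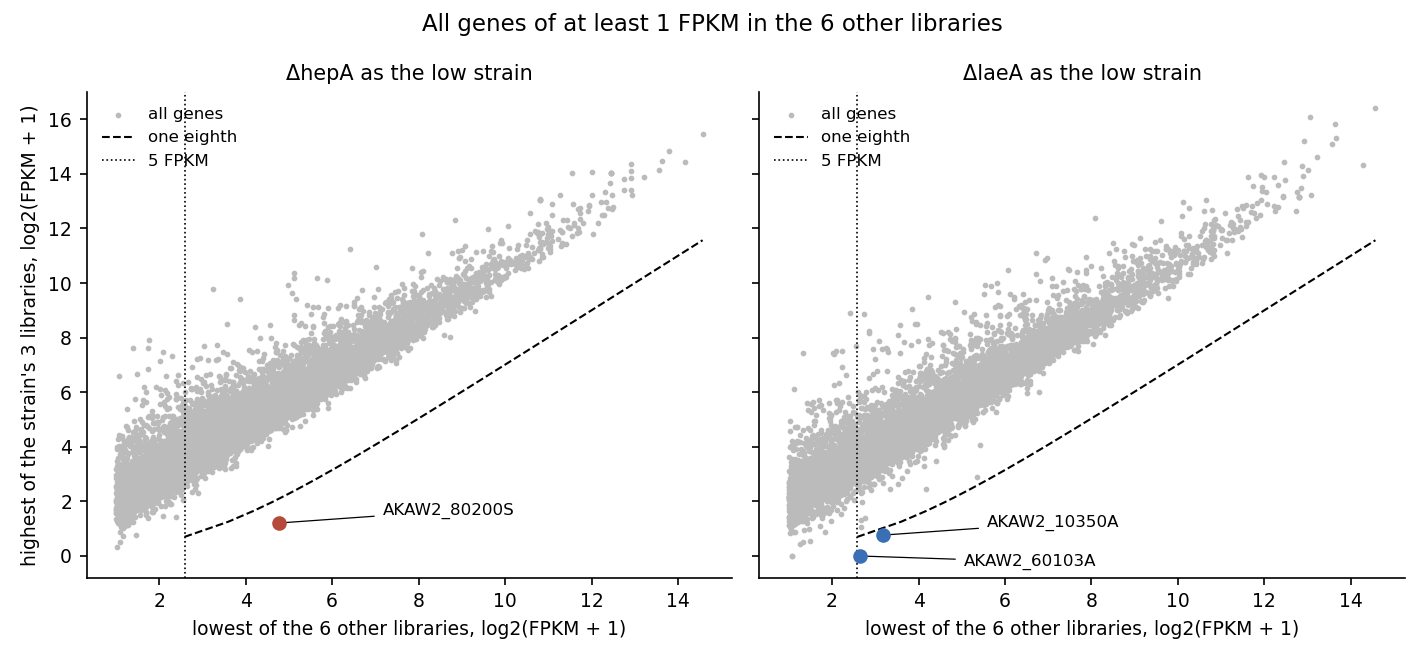
Each grey point is a gene with at least 1 FPKM in all of the 6 libraries outside the low strain; the horizontal axis is the lowest of those 6 values and the vertical axis the highest of the strain's 3 values, both as log2(FPKM + 1). The dashed line marks 1/8 and the dotted line 5 FPKM; AKAW2_80200S lies alone below the dashed line for ΔhepA, and AKAW2_10350A and AKAW2_60103A lie below it for ΔlaeA.

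No gene met the same rule with the control as the low group. The mirror of the rule, with 1 strain high and the other 6 libraries at most at 1/8 of it, was met by 3 genes, all high in the control: the chromosome 4 neighbours AKAW2_40841A, AKAW2_40842S and AKAW2_40844S. AKAW2_40841A had at most 90.09 FPKM in any deletion library, against at least 1077.43 FPKM in the control. No gene met the mirror with a deletion strain high.

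Each gene was next set against the control in the deletion strain where it was still expressed. The rule used these 6 libraries too, since each had to reach 5 FPKM and 8 times the low strain's highest value, so a gene much lower in both deletion strains could not have been chosen. The differences are therefore given as a description, with no p-value. log2(FPKM + 1) was fitted by limma over the 10009 genes that reached 1 FPKM in 3 or more libraries, and Benjamini-Hochberg adjusted p-values over all of them, with a threshold of 0.05, are given below for genes other than the 3. In this fit 0.32% of genes were called in ΔhepA against control and 1.09% in ΔlaeA against control. The calls in ΔlaeA were 17 higher and 92 lower, and 48 higher and 94 lower after median-ratio scaling; those in ΔhepA were 5 higher and 27 lower, and 0 higher and 6 lower after that scaling.

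AKAW2_80200S, at 44.2 ± 24.2 FPKM in ΔlaeA and 62.8 ± 7.55 FPKM in the control (SD, n = 3 each), had a log2 difference of -0.62 ± 0.393 SE. The ΔlaeA libraries were uneven. Replicate 1 stood at 71.71 FPKM, above all controls, and replicates 2 and 3 stood below all of them. Those same 2 libraries had the lowest relative depths and the 2 highest mitochondrial shares of the FPKM sum, and the part of these features in the values was not tested. Without ΔlaeA replicate 1 the log2 difference was -1.02. Without the 3 libraries of high mitochondrial share, which leaves ΔlaeA replicate 1 alone, it turned to 0.20.

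AKAW2_10350A, at 10.54 ± 2.75 FPKM in ΔhepA and 15.9 ± 5.81 FPKM in the control (SD, n = 3 each), had a log2 difference of -0.52 ± 0.377 SE, with overlapping ranges. AKAW2_60103A had a log2 difference of 1.09 ± 0.516 SE between ΔhepA and control. Its 15 fragments in ΔhepA, of which 10 came from replicate 3, stood against 5 in the control. Without ΔhepA replicate 3 the log2 difference was 0.45. The median log2 difference of all tested genes was -0.15 in ΔhepA and -0.21 in ΔlaeA, and median-ratio scaling brought it to 0.01 and -0.03.

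The selection itself fixed the lowest strain of each gene. By means alone, the order from low to high was ΔhepA, ΔlaeA and control for AKAW2_80200S, with overlapping ranges in ΔlaeA and control. For AKAW2_10350A the order was ΔlaeA, ΔhepA and control, and the ranges of ΔhepA and control overlapped. For AKAW2_60103A the order was ΔlaeA, control and ΔhepA. In a single library ΔlaeA could not be told from the control at this depth, and the ranges of control and ΔhepA overlapped.

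No gene beside these loci met the rule. The 5 annotated genes on each side were compared in the deletion strain where the gene between them was at or near 0. Of the 10 neighbours of AKAW2_80200S, 0 were called by limma in ΔhepA against control (2 at an unadjusted p under 0.05), where 0.27% of all tested genes fell and 0.05% rose. Of the 9 tested neighbours of AKAW2_10350A, 0 were called in ΔlaeA (1 at an unadjusted p under 0.05). Of the 10 neighbours of AKAW2_60103A, also 0 were called (3 at an unadjusted p under 0.05). In ΔlaeA 0.919% of all tested genes were called lower and 0.17% higher. An unadjusted limma p under 0.05 was reached by 1044 of the 10009 tested genes in ΔhepA and by 2164 in ΔlaeA.

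Beside AKAW2_80200S, the nearest gene on the left is CCT5, named after a subunit of the cytosolic chaperonin, whose near end lies 439 bases away. CCT5 had 77.85, 44.76 and 65.29 FPKM in ΔhepA and 70.7, 65.11 and 76.15 FPKM in the control, and these ranges overlapped. The nearest gene on the right is AKAW2_80201A, which begins 392 bases away and lies on the opposite strand, so that both genes run towards each other. AKAW2_80201A had 14.33, 15.22 and 14 FPKM in ΔhepA, 22.64, 23.74 and 21.94 FPKM in ΔlaeA and 30.61, 26.08 and 24.77 FPKM in the control. All ΔhepA values lay below all others, at a log2 difference from the control of -0.85 ± 0.257 SE, and the change did not pass the test (limma adjusted p = 0.24, unadjusted p = 0.00682).

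SWF1, the second gene on that side and named after a yeast protein palmitoyltransferase, showed the same order. It had 8.79, 5.72 and 8.09 FPKM in ΔhepA and 13.22, 14.08 and 12.28 FPKM in the control (log2 difference -0.75 ± 0.291 SE, limma adjusted p = 0.387). The ΔhepA and control values of SWF1 did not overlap. CTR86, the third gene on that side, overlapped between the strains, at 32.46, 11.79 and 18.56 FPKM in ΔhepA and 20.77, 22.68 and 23.11 FPKM in the control. Over all 10 neighbours the log2 differences ran from -1.12 (AKAW2_80197S, limma adjusted p = 0.611) to 0.68, with 9 below 0 and a median of -0.32, against -0.15 over all tested genes. The median was -0.12 without the 3 libraries of high mitochondrial share, with 6 below 0, against -0.05 over all tested genes.

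Beside AKAW2_10350A, SWD1, named after a yeast subunit of the COMPASS complex that methylates histone H3, lies 996 bases to the left. SWD1 had 84.44, 49.83 and 60.82 FPKM in ΔlaeA and 73.03, 71.83 and 77.43 FPKM in the control (log2 difference -0.22 ± 0.325 SE, limma adjusted p = 0.711). The ΔlaeA range of SWD1 enclosed the control range. RPB1, which encodes the largest subunit of RNA polymerase II, lies next to it. It had 14.08, 10.4 and 9.52 FPKM in ΔlaeA and 11.6, 14.68 and 12.53 FPKM in the control.

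To the right of AKAW2_10350A no annotated gene lies for 7037 bases; the first is AKAW2_t10012A, listed at 0 in all 9 libraries and not tested. AKAW2_10351S follows, with 372.74, 264.12 and 261.49 FPKM in ΔlaeA and 183.69, 368.69 and 353.64 FPKM in the control. Over the 9 tested neighbours the log2 differences ran from -0.62 to 0.82 with a median of -0.19, close to the -0.21 of all tested genes. The median turned to 0.12 without those 3 libraries, against 0.02 over all tested genes.

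Beside AKAW2_60103A, AKAW2_60102A ends 302 bases to the left and lies on the same strand. It had 54.69, 30.02 and 26.59 FPKM in ΔlaeA and 64.35, 55.39 and 59.16 FPKM in the control (log2 difference -0.74 ± 0.307 SE, limma adjusted p = 0.202). All 3 ΔlaeA values were below the controls, the lowest 2 again in replicates 2 and 3. On the right, AKAW2_60104S had 29.43, 11.05 and 9.78 FPKM in ΔlaeA and 21.58, 38.36 and 31.03 FPKM in the control (log2 difference -0.95 ± 0.423 SE, adjusted p = 0.225). The lowest difference at this locus was that of AKAW2_60100S, with 21.73, 19.94 and 36.8 FPKM in ΔlaeA and 59.99, 32.16 and 64.27 FPKM in the control (log2 difference -0.96 ± 0.349 SE, unadjusted p = 0.0193, limma adjusted p = 0.16). Over the 10 neighbours the median log2 difference was -0.41, with 8 below 0, against -0.21 over all tested genes. Leaving out the 3 libraries of high mitochondrial share gave a median of -0.06, with 6 below 0, against 0.02.

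**Figure D4:**
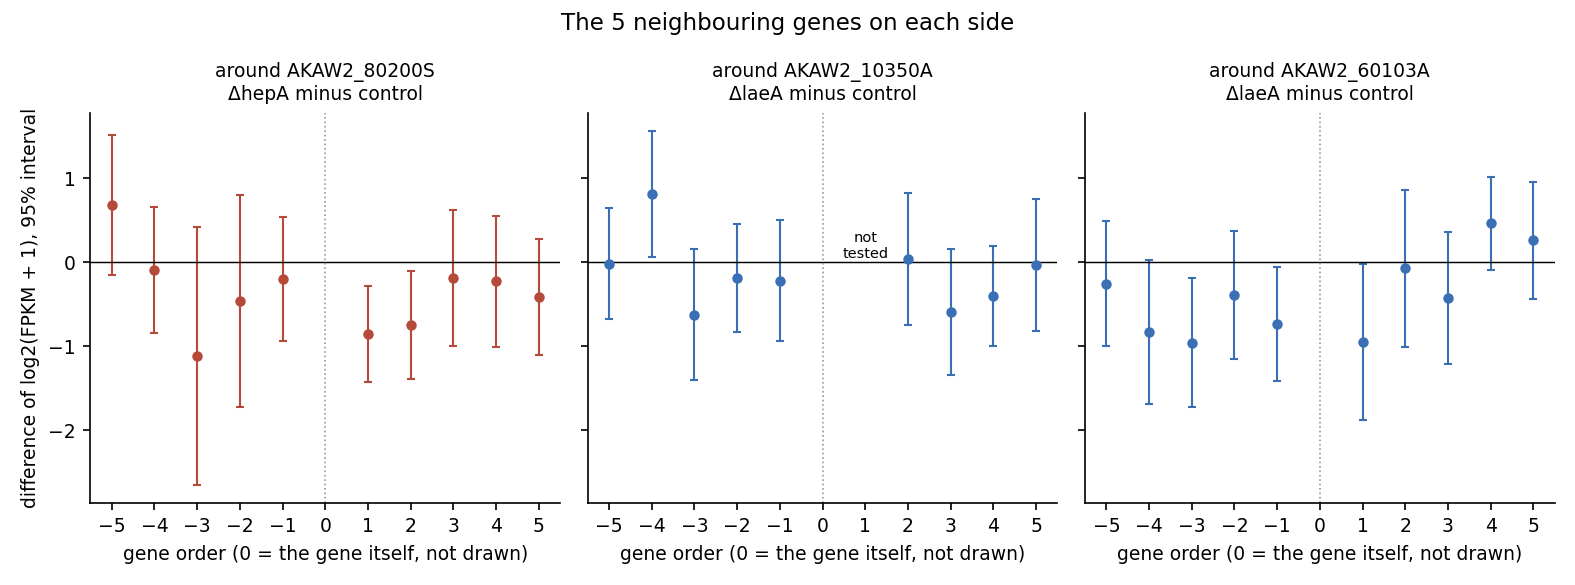
Difference of log2(FPKM + 1) between the named deletion strain and the control (vertical axis, limma estimate with its unadjusted 95% interval, 3 libraries per group) for the 5 genes on each side of each locus, in gene order along the chromosome. All drawn estimates lie between -1.12 and 0.82, and none passed the adjusted threshold.

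Genes with the most similar pattern across the 9 libraries were listed by Pearson's r of log2(FPKM + 1) among the 7839 tested genes with a mean of at least 5 FPKM. These values are descriptions: the points share libraries and depth, and each member's pattern is mostly 1 strain against the rest. For AKAW2_80200S the 5 highest had r from 0.912 to 0.955, with zrfB first. zrfB, named after a zinc transporter gene of Aspergillus fumigatus, had 24.5 FPKM on average in ΔhepA, 38.8 in ΔlaeA and 40.8 in the control. The third on that list was AKAW2_80201A, the gene next to AKAW2_80200S, at r = 0.95. The other 3 were AKAW2_20200A, AKAW2_30135A and AKAW2_21303S. Their ΔhepA means were 108, 22.7 and 141 FPKM, against control means of 241, 34.2 and 215 FPKM, so all 3 were still well expressed in ΔhepA.

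For AKAW2_10350A the 5 most similar genes had r from 0.933 to 0.949. AKAW2_40205S had the lowest ΔlaeA mean of the 5, at 0.703 FPKM, with 6.66 FPKM in ΔhepA and 25.7 FPKM in the control. AKAW2_80690S had means of 0.727 FPKM in ΔlaeA, 8.75 FPKM in ΔhepA and 8.67 FPKM in the control. AKAW2_80698S had a mean of 13.9 FPKM in ΔlaeA, 49.1 FPKM in ΔhepA and 55.1 FPKM in the control. AKAW2_12103S and AKAW2_40554A completed the list, with ΔlaeA means of 10.1 and 8.45 FPKM. For AKAW2_60103A the 5 highest r ran from 0.865 to 0.931, and AKAW2_10350A was the fourth, at 0.895; with so few fragments these values carry little weight.

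Genes of heterochromatin and histone modification, and velvet and conidiation regulators, were matched by symbol. Whether each acts in a pathway with HepA or LaeA in this strain was not tested. In ΔhepA against control, 0.32% of all tested genes were called by limma, and 1044 of 10009 had an unadjusted p under 0.05. Of the 10 matched genes of heterochromatin and histone modification, 0 were called there (0 also at an unadjusted p under 0.05). Their median log2 difference was -0.13, with all 10 below 0, against -0.15 over all tested genes. Without the 3 libraries of high mitochondrial share the median was 0.03, with 4 below 0, against -0.05 over all tested genes. clrD, which encodes the histone H3 lysine 9 methyltransferase whose mark HP1 proteins bind, had 5.6 ± 1.11 FPKM in ΔhepA and 6.2 ± 2.49 FPKM in the control (SD, n = 3 each; log2 difference -0.09). The histone deacetylase gene rpdA had 215 ± 54.3 FPKM in ΔhepA and 307 ± 57.7 FPKM in the control (log2 difference -0.53, adjusted p = 0.539). SWI6 in this list shares its symbol with both the fission yeast HP1 protein and an unrelated budding yeast cell-cycle factor; it had 3.71 ± 1.53 FPKM in ΔhepA and 7.12 ± 0.646 FPKM in the control and is not one of the 3 genes.

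In ΔlaeA against control, 1.09% of all tested genes were called by limma, and 2164 of 10009 had an unadjusted p under 0.05. Of the 11 matched velvet and conidiation regulators, 0 were called there (3 at an unadjusted p under 0.05). Their median log2 difference was -0.69, with 9 below 0, against -0.21 over all tested genes. The genes brlA and fluG lay above 0, at log2 differences of 0.66 and 0.55 (limma adjusted p = 0.301 and 0.321). In medA and vosA the low values lay in ΔlaeA replicates 2 and 3, the libraries of lowest depth and highest mitochondrial share. The part of these features was not tested. medA, a developmental modifier gene, had 69.42, 23.82 and 9.51 FPKM in ΔlaeA and 32.46, 44.29 and 35.73 FPKM in the control. vosA, a velvet-domain gene of spore formation, had 19.07, 3.65 and 1.39 FPKM in ΔlaeA and 15.08, 21.43 and 20.95 FPKM in the control. In both genes replicate 1 was within or above the control range. Leaving out the 3 libraries of high mitochondrial share left ΔlaeA replicate 1 alone, assumed to vary like the other groups. The median of the 11 genes then turned to 0.17, with 4 of 11 below 0, against 0.02 over all tested genes. veA, the velvet gene, had 11.6 ± 4.78 FPKM in ΔlaeA and 34.4 ± 2.77 FPKM in the control (SD, n = 3 each; log2 difference -1.55 ± 0.368 SE, limma adjusted p = 0.0668). abaA, a transcription factor gene of conidiophore development, had 5.54 ± 1.82 FPKM in ΔlaeA and 23.7 ± 11.5 FPKM in the control (log2 difference -1.84, adjusted p = 0.0587). Together with flbB, these were the 3 genes at an unadjusted limma p under 0.05. All 3 were below every control in ΔlaeA replicate 1 too. There veA, abaA and flbB had 16.72, 7.62 and 40.72 FPKM, against lowest control values of 32.38, 12.35 and 49.79 FPKM. Without the 3 libraries the log2 differences were -0.996 for veA and -1.41 for abaA (limma adjusted p = 0.335 and 0.426). Neither passed the test, and neither met the rule.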

How the data were processed

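Poly(A)-enriched, stranded libraries were made, per the labels' protocols. The authors deposited FPKM values per gene in a table named for RSEM; the submitters' processing notes name STAR 2.7.9a, featureCounts 2.0.1 and RSEM 1.3.1 among others, without saying what each did. The genome build, and whether counting used strand, are not given in the sources used here. The reference table held all 12941 genes. Annotated length is the genomic span. Libraries were grouped by title.

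The 3 genes, the lists and the tests were chosen with earlier results of these data known. FPKM values are not counts, so limma 3.58.1 (R 4.3.3) was run on log2(FPKM + 1) of the 10009 genes that reached 1 FPKM in 3 or more libraries. One model held the 3 strain means of all 9 libraries, with a mean trend. Tests were two-sided and adjusted by Benjamini-Hochberg. The fit was tested on simulated data. Differences on this scale understate changes of low genes.

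Relative depth is the most frequent ratio of values between 0.1 and 1.2 FPKM to control replicate 3. Fragments of AKAW2_60103A came from the largest step of which all values of 243-base genes are whole multiples (tolerance 0.006 FPKM). For the longer genes, the smallest whole numbers that fit the low values after scaling by depth (tolerance 5%) were used; spliced lengths were not used here, so these remain estimates. Named were the 3 genes, 5 neighbours per side, 5 genes of similar pattern, those nearest the threshold, and members of 2 lists. Alternatives were pseudocounts of 0.1 and 5, other filters and scalings, other fits, each library left out and other thresholds. Python 3.11.15 with pandas 2.3.3, scipy 1.17.1 and matplotlib 3.10.9 was also used.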

Additional observations from a re-analysis of the deposited data

How the results depend on the processing

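The rule, counted over the deletion strains, gave 5 genes with at least 1 FPKM in place of 5, 1 gene (AKAW2_80200S) with at least 10 FPKM, 5 genes at a ratio of 1/4 and 2 at 1/16. Leaving out single libraries gave 3 to 8 genes, with the highest count without ΔlaeA replicate 1 and 5 without ΔlaeA replicate 2; AKAW2_80200S, AKAW2_10350A and AKAW2_60103A were kept in all 9. AKAW2_60103A was not kept with median-ratio or TPM scaling (2 genes each), nor, in an alternative chosen after seeing the data, among genes of at least 500 bases (2 genes).

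Across single left-out libraries the log2 differences ran from -1.02 to -0.32 for AKAW2_80200S (ΔlaeA minus control), -0.77 to -0.27 for AKAW2_10350A (ΔhepA minus control) and 0.45 to 1.496 for AKAW2_60103A (ΔhepA minus control). Without the 3 libraries of high mitochondrial share, also chosen after seeing the data, AKAW2_80200S turned to 0.20; the cause was not tested. With the replicate number as a block the 3 differences were -0.62, -0.52 and 1.09; same-numbered libraries did not all deviate together (r from -0.22 to 0.42), so the numbers were not taken as pairs.

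Counts of called neighbours stayed at 0 in all alternatives, except without ΔlaeA replicate 1, which called 1 neighbour of AKAW2_10350A and 2 of AKAW2_60103A. That fit also called 4 of the 11 velvet and conidiation genes, beside 1601 of all 10009 tested genes in ΔlaeA against control. TPM scaling called 2 of the 11, beside 211 of all 10009. The other fits with more than 1 library per strain called 0 of the 11. Over all genes, 32 were called in ΔhepA and 109 in ΔlaeA. In ΔhepA the count was 6 with the block or median-ratio scaling, 11 with a pseudocount of 0.1, 14 with no filter or with the 2 groups alone, and 5 to 55 with 1 library left out. In ΔlaeA it was 174 with the block, 211 with TPM scaling, 29 with no filter, 49 with the 2 groups alone, and 21 to 1601 with 1 library left out (1601 without ΔlaeA replicate 1). Without the 3 libraries of high mitochondrial share it was 7 in ΔhepA and 9 in ΔlaeA. Depth limits AKAW2_60103A most: it has at most 10 fragments in a library.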
